A study of Homo sapiens with 8 samples.

Results

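The zinc finger genes of chromosome 19 are described here by where Flag-tagged ARID1A gave ChIP-seq peaks at them. The members are the protein-coding RefSeq genes on chromosome 19 of GRCh38 whose symbol is ZNF followed by a digit, which gave 250 of the 20037 protein-coding genes on the assembled chromosomes. Each gene was taken with 10 kb on either side, and this stretch is called its window. No member was filtered out. The cells were Huh7, a human hepatocellular carcinoma line, and all 3 groups carried a knockout of ARID1A and a lentivirus that stably expressed ARID1A with a Flag tag. The WT group expressed the wild-type protein, the V2084D group a protein with that missense change, and the third group the V2084D protein together with knockdown of STUB1, a ubiquitin ligase. Each group had 2 ChIP libraries, each with a peak list of its own, and the input libraries were not analysed here. Whether the paired libraries of a group were grown as separate cultures is not stated in the labels. The p-values thus reflect library-to-library spread, possibly technical.

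ARID1A is a DNA-binding subunit of the BAF form of SWI/SNF, the ATP-driven complex that slides and evicts nucleosomes at promoters and enhancers. Most ZNF genes of chromosome 19 encode proteins with a row of C2H2 zinc fingers, each of which contacts a few bases of DNA, and many also carry a KRAB domain. KRAB recruits TRIM28, which in turn brings the histone methyltransferase SETDB1 and HP1 proteins and so silences transposable elements. These genes arose by repeated tandem duplication and lie in runs of related copies. The exons that encode the fingers are at the far end of the gene, and in many cell types they carry the heterochromatin mark that SETDB1 lays down.

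The promoters of 6 members are printed because the results turn on where peaks lay relative to gene starts. They are the 250 bases before the RefSeq start, read 5′ to 3′ on the strand of the gene, with capitals for matches on either strand to 5 short motifs. The motifs were GGGCGG (bound by SP factors), CCGGAAG (ETS factors), TGACTCA (AP-1), GCATGCGC (NRF1) and CCATNTT (YY1). ZNF837 (chr19:58381031-58381280, minus strand) and ZNF274 (chr19:58182811-58183060, plus strand) had a peak in all 6 lists. ZNF709 (chr19:12484817-12485066, minus strand) had a peak in both WT lists and in no mutant list. ZNF780A (chr19:40090944-40091193, minus strand) had a peak in both WT and both STUB1 knockdown lists and in neither V2084D list. ZNF91 (chr19:23395472-23395721, minus strand) and ZNF208 (chr19:22010944-22011193, minus strand) had no peak in any list. The sequences and starts are those of RefSeq on GRCh38.p14, which gave a start for 219 of the 250 members.
ZNF837: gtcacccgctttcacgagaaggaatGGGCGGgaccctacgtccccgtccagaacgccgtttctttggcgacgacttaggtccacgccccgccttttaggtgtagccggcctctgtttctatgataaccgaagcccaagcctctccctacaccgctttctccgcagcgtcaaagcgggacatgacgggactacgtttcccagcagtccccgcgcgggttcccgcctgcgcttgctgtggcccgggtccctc
ZNF274: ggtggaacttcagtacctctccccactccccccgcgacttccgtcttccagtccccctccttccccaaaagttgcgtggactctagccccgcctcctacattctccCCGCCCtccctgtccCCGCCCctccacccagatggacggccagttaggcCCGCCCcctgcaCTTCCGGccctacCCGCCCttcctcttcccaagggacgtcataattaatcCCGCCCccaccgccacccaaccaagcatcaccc
ZNF709: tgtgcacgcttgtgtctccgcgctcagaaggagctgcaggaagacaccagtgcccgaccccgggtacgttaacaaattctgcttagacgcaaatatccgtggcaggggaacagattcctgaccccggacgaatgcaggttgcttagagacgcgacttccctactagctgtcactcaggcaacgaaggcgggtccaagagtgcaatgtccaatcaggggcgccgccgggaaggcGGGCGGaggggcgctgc
ZNF780A: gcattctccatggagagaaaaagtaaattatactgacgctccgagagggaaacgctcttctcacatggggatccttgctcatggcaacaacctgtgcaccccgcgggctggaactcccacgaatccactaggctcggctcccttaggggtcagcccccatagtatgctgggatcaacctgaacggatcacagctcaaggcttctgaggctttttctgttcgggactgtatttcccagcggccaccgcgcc
ZNF91: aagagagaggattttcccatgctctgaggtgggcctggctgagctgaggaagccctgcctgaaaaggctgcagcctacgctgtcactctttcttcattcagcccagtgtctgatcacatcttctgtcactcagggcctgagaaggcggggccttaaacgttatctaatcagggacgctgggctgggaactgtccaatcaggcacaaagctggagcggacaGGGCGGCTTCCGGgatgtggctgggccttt
ZNF208: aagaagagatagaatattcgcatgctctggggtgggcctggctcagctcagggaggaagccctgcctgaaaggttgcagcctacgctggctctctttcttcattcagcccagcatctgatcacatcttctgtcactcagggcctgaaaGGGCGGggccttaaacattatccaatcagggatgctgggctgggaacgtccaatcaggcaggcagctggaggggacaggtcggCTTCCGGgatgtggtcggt

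Peaks at these genes were denser at gene ends than along the gene bodies, as over all genes. A peak was placed by its summit, the position of its highest signal, and counted once: within 1000 bp of either annotated end of a member, otherwise inside a member, otherwise in the flank up to 10 kb. The WT lists held 216 and 215 peaks in the windows, the V2084D lists 46 and 107, and the STUB1 knockdown lists 77 and 65. Of these, the gene ends took 135 and 134 in WT, 34 and 75 for V2084D, and 58 and 50 for the STUB1 knockdown. Gene bodies, which cover 6.59 Mb against 0.963 Mb of gene ends, held 41 and 41 peaks in WT, 5 and 14 for V2084D, and 7 and 6 for the STUB1 knockdown. Per Mb, the gene ends held 140 and 139 WT peaks and the bodies 6.23 and 6.23, a ratio of 22.5 and 22.3. Over all protein-coding genes the ends held 167 and 161 per Mb, with a ratio to the bodies of 24.1 and 24.2, and at the other genes of chromosome 19 the ends held 195 and 186, with a ratio of 5.98 and 5.89. The members' ends thus held fewer WT peaks per Mb than either set. Ends were also denser than bodies in the mutant lists, with 35.3 and 77.9 peaks per Mb at the ends and 0.759 and 2.13 in the bodies for V2084D, and 60.2 and 51.9 against 1.06 and 0.911 with STUB1 knockdown. The flanks held 40 and 40, 7 and 18, and 12 and 9 peaks in the same order of groups.

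The end share, the share of window peaks that lay at gene ends, was higher at these genes than at the other 1201 protein-coding genes of chromosome 19 in every list. It was 62.5% (95% Wilson interval 55.9 to 68.7) and 62.3% (55.7 to 68.5) in the WT lists. In the V2084D lists it was 73.9% (59.7 to 84.4) and 70.1% (60.8 to 77.9). With STUB1 knockdown it was 75.3% (64.6 to 83.6) and 76.9% (65.4 to 85.5). These intervals cover counting error only. At the other chromosome 19 genes the end share was 46.2% and 44.9%, 60.2% and 50.5%, and 59.0% and 59.2% in the same order. The difference was 16.8 percentage points on average (SD 1.94 over 6 lists, range 13.7 to 19.6, higher in 6 of 6 lists; exact two-sided sign-flip permutation p = 0.03125, adjusted p = 0.03125 over 2 tests), and 0.03125 is the smallest p that 6 lists allow. Against the 267 zinc finger genes of other chromosomes it was 12.7 points, and against all protein-coding genes that are no members 9.85 points, with p = 0.03125 in each by the same exact permutation test. The end share does not allow for the part of the windows that is gene end. This was 0.963 of 10.4 Mb at the members and 4.18 of 33.9 Mb at the other chromosome 19 genes. At zinc finger genes elsewhere it was 1.05 of 18.8 Mb, and over all genes 72.8 of 1487 Mb. Per Mb, ends of zinc finger genes elsewhere held 225 and 225 WT peaks, against 140 and 139 at the members. Their ratio of ends to bodies was 23.8 and 24.1, against 22.5 and 22.3. With a window of 20 kb the difference from the other chromosome 19 genes fell to 9.46 points.

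**Figure D1:**
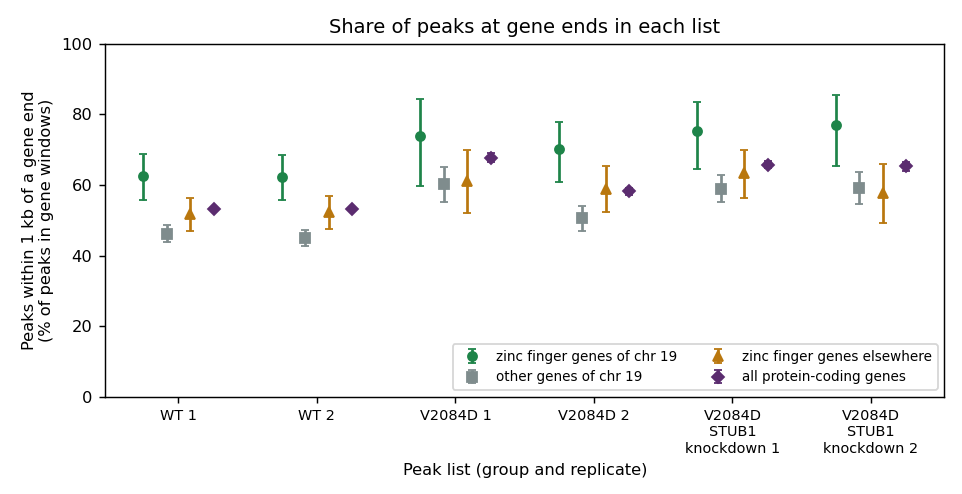
Share of window peaks with a summit within 1 kb of a gene end (y axis, percent) in each of the 6 peak lists (x axis), with 95% Wilson intervals as bars; circles are the zinc finger genes of chromosome 19, squares the other genes of that chromosome, triangles zinc finger genes elsewhere and diamonds all protein-coding genes. The circles lie between 62.3% and 76.9% and above the squares in all 6 lists.

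The bodies of these genes were sparse in peaks for their chromosome. At the other chromosome 19 genes the body density was 32.5 and 31.6 peaks per Mb in the WT lists, 4.55 and 12.4 for V2084D, and 8.73 and 5.76 for the STUB1 knockdown. The members' density was lower in all 6 lists, by 2.59 on the log2 scale on average (SD 0.25, range −3.04 to −2.34), which is 6.03-fold (exact two-sided sign-flip permutation p = 0.03125, adjusted p = 0.03125). Over all protein-coding genes the WT lists held 6.93 and 6.68 body peaks per Mb. Against all genes that are no members the log2 difference was −0.32, and against zinc finger genes elsewhere it was −0.74, each lower in 6 of 6 lists. The size of the difference thus differed with the genes set beside the members, and the test against the other chromosome 19 genes compares them with gene bodies that hold many peaks. The members' median length was 23254.5 bp, against 12694 bp for the other genes of the chromosome and 24115 bp for all genes.

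Of the 2 ends of a gene, the start held nearly all end peaks. Among the members with a known strand, 115 and 115 WT peaks lay within 1 kb of the start alone and 5 and 6 within 1 kb of the far end alone. In V2084D the counts were 29 and 64 at starts against 1 and 4 at far ends, and with STUB1 knockdown 49 and 45 against 2 and 0. The summits were close to the start: the median distance of the end peaks ranged from 135.5 to 174 bp over the 6 lists, and 88 of 135 and 81 of 134 WT end peaks were within 250 bp. The far ends, where the finger exons lie, thus held few peaks in any group. Inside the genes with a known strand, split into 10 equal bins, the bin at the start held 69.2% and 69.8% of the WT summits and the bin at the far end 2.50% and 2.59%.

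Many peaks in gene bodies lay at a start too. RefSeq lists several starts for 36 members. Of the 41 and 41 WT body peaks, 23 and 20 were within 1 kb of a listed start of a member, and in the mutant lists 4 of 5, 12 of 14, 5 of 7 and 6 of 6 were. Reproducible regions, meaning stretches where peaks of both libraries of a group overlap by at least 1 bp, showed the same. WT had 153 of them in the windows, 113 at gene ends, 16 in bodies and 24 in flanks, and 13 of the 16 body regions were within 1 kb of a listed start. Of the other body regions, those in ZNF30 and ZNF114 could not be placed this way, since no start was matched for these genes. The remaining one was in ZNF536, a neural repressor gene and the longest member at 487995 bp, 25183 bp from a listed start. Of the end regions, 99 were nearer to the start, 3 to the far end and 11 at genes with no strand here. Some regions cannot be given to a member alone: 53 of 153 were in the windows of 2 or more members, and 8 end and 9 flank regions lay within 1 kb of an end of a gene that is no member.

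The strongest end regions, ranked by the authors' −log10 q, were those of ZNF653, ZNF837, ZNF564, ZNF580, ZNF382, ZNF274, ZNF570 and ZNF77. Folds given for regions are the authors' fold enrichment of the peak over its background, each to be read within its own list. The region of ZNF653 (chr19:11481329-11483101) had folds of 13.5 and 16.3 in WT, 6.81 and 5.92 for V2084D, and 6.73 and 6.20 for the STUB1 knockdown. It was the strongest of these and lay not at the start but 881 bp from the far end, 1502 bp from an end of ELAVL3. ZNF837 (chr19:58380342-58381192), whose promoter is printed above, had folds of 10.02 and 11.3, 7.04 and 4.40, and 8.02 and 6.67. ZNF274 (chr19:58182977-58183839) had 9.51 and 9.53, 6.27 and 5.77, and 5.22 and 7.54. ZNF274 is a KRAB zinc finger protein that brings SETDB1 to the finger exons of other ZNF genes, and its summit lay 144 bp from its own start.

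The other strong regions differed in how many mutant lists held them. ZNF580 (chr19:55639984-55642200) and ZNF77 (chr19:2944533-2945663) had a peak in all 6 lists, with WT folds of 9.25 and 9.09 and of 8.18 and 7.76. ZNF564 had folds of 11.2 and 10.7 in WT, 5.74 in V2084D replicate 2 and 6.42 in STUB1 knockdown replicate 1, with no peak in the other two. ZNF382 had folds of 9.51 and 10.4 in WT and a mutant peak only in STUB1 knockdown replicate 2, at 6.51. ZNF570 had folds of 9.06 and 8.95 and a mutant peak only in STUB1 knockdown replicate 1, at 5.87. A high WT rank thus went with peaks in all mutant lists at some members and in 1 of 4 at others. ZNF460, held in all 6 lists, had the highest mutant fold among the regions named here, 10.5 in STUB1 knockdown replicate 1, beside 9.23 and 8.31 in WT. ZNF524 (WT folds 8.18 and 7.21) was also in all 6 lists, and its summit was 395 bp from an end of FIZ1, so it cannot be given to ZNF524 alone.

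The body regions were weaker than the strongest end regions. In order of rank they were those of ZNF749, with WT folds of 7.98 and 6.70, ZNF444 with 6.63 and 5.10, ZNF846 with 5.04 and 5.10, ZNF799, ZNF302, ZNF30, ZNF114 and ZNF875. Those of ZNF749, ZNF444, ZNF846, ZNF799, ZNF302 and ZNF875 were within 338 bp of a listed start, and for ZNF30 and ZNF114 no start was matched. That of ZNF302 was also 181 bp from an end of SCGB2B2. None of the 16 body regions had a peak in all 6 lists. Of those at genes with a known strand, which leaves out ZNF30 and ZNF114, none lay in the last of 10 equal bins of its gene. ZNF324B and ZNF227 also had a body region each, the first at 0.85 of the way along the gene and 107 bp from a listed start.

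A reproducible region within the window was found at fewer members in the mutant groups than in WT, and the same was seen over all genes. WT had one at 156 of 250 members (62.4%), beside a background of 63.6% of all protein-coding genes. V2084D had one at 36 members (14.4%, background 20.5%) and V2084D with STUB1 knockdown at 49 (19.6%, background 22.2%). The zinc finger genes of other chromosomes stood at 80.1%, 25.5% and 28.1%. The members were thus near the background in WT and STUB1 knockdown and below it in V2084D, and no test was made over genes. A region needs a peak in both lists of a group, so its number depends on both. Without V2084D replicate 1, the list of 6000 peaks, a peak of the other V2084D list was found at 101 members. Without STUB1 knockdown replicate 2 the number was 74 for that group. Leaving out a list also drops the need for overlap, so the part of list length was not tested. The share over all genes was not counted in this way.

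At gene ends the same counts were 115 members in WT (46.0%, background 50.2%), 27 in V2084D (10.8%, background 13.6%) and 38 with STUB1 knockdown (15.2%, background 14.4%). In gene bodies they were 22 (8.80%, background 17.3%), 4 (1.60%, background 3.42%) and 5 (2%, background 3.86%). The body counts were about as far below the background in all 3 groups, while the end counts were near it. A count by gene does not allow for body size. The members' bodies cover 6.59 Mb for 250 genes, against 1221 Mb for all 20037 genes. Per Mb the members' bodies held 6.23 and 6.23 WT peaks, against 6.93 and 6.68 over all genes. Zinc finger genes elsewhere had a body region at 18.4%, 1.87% and 2.62% in the same order of groups. Counting single lists, 67 members had no peak in any list (26.8%, background 22.8%), and 16, 47, 35, 34, 25 and 26 had a peak in 1, 2, 3, 4, 5 and 6 lists. No member had a reproducible mutant region and no WT peak in its window (0 of 250, background 0.0749%).

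The end share was lowest in WT and highest with STUB1 knockdown. It was 62.4% ± 0.123 (SD, n = 2) in WT, 72.0% ± 2.70 in V2084D and 76.1% ± 1.13 with STUB1 knockdown, and the 3 groups did not overlap. The differences were 9.59 percentage points for V2084D against WT, 4.12 for STUB1 knockdown against V2084D and 13.7 for STUB1 knockdown against WT. Each had p = 0.33 by the exact two-sided permutation test of the libraries (adjusted p = 0.33 over 3 pairs), the smallest that 2 lists against 2 allow. The order moved with the length of the lists, which held 27587 and 26515, 6000 and 12384, and 8904 and 6663 peaks. With each list cut to its 6000 strongest peaks, V2084D minus WT was −1.27 points and STUB1 knockdown minus WT 3.58 points. The share was also lowest in WT over all genes, at 53.2% and 53.2%, 67.8% and 58.2%, and 65.8% and 65.3%.

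The members' windows took under 1% of each list. The WT lists had 0.783% and 0.811% of their peaks there, the V2084D lists 0.767% and 0.864%, and the STUB1 knockdown lists 0.865% and 0.976%. The log2 difference was 0.031 for V2084D against WT (exact permutation p = 1), 0.17 for STUB1 knockdown against V2084D and 0.21 for STUB1 knockdown against WT (p = 0.33 and adjusted p = 0.5 for both, exact permutation). The pairs of lists ranged from −0.081 to 0.35, and both STUB1 knockdown lists were above both WT lists. With 2 lists a group no p below 0.33 was possible. In lists of equal length the differences from WT were −0.30 for V2084D and −0.25 for STUB1 knockdown.

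Of the 153 WT regions in the windows, a V2084D peak overlapped 42 (27.5%) in replicate 1 and 84 (54.9%) in replicate 2. A STUB1 knockdown peak overlapped 63 (41.2%) and 55 (35.9%). Over all 15876 WT regions these shares were 27.7%, 46.8%, 41.7% and 31.5%, so the members' regions were held about as often as regions elsewhere. The V2084D lists lay on either side of both STUB1 knockdown lists, and the difference of the group means was −2.61 percentage points (pairs from −19.0 to 13.7, exact two-sided permutation p = 1). Without V2084D replicate 2 the difference was 11.1 points, and without V2084D replicate 1 it was −16.3. End regions were covered 2.97 points more often than body regions on average over the 4 mutant lists (range −3.82 to 13.9, higher in 3 of 4, exact sign-flip permutation p = 0.625), a comparison of 113 with 16 regions in which 4 lists allow no p below 0.125. Without STUB1 knockdown replicate 1 it was −0.66.

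End regions held in all lists had higher median WT folds than end regions with no mutant peak. A peak in all 4 mutant lists was found at 18 of 153 regions (11.8%, against 13.1% of all WT regions), 17 of them at gene ends, and no mutant peak at 45 (29.4%, against 34.8%). The 17 end regions in all 6 lists had median WT folds of 8.18 and 7.80 and a median width of 1131 bp. The 32 end regions with no mutant peak had 4.60 and 4.89 and 631 bp. The flank region in all 6 lists had folds of 4.58 and 4.73, beside medians of 4.69 and 4.37 for the 9 flank regions with no mutant peak. Counted by gene, 26 of the 156 members with a WT region had a peak of each mutant list somewhere in the window (16.7%, background 25.6%), and 40 had none (25.6%, background 17.7%). By gene the share with no mutant peak was above the background, while by region it was below that of all WT regions. In lists of equal length 3 WT regions had no mutant peak. With either WT list left out, the other's peaks counting alone, 94 and 96 had none. The number of WT regions itself changed in these settings, so these counts are not out of the 153. The same share over all WT regions was not counted there.

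The strongest members with a WT region and no mutant peak in the window were ZNF709, ZNF557, ZNF211, ZNF429, ZNF575 and ZNF234. ZNF709 (chr19:12484322-12485130) had WT folds of 9.97 and 7.17, ZNF557 7.59 and 4.90, and ZNF211 6.57 and 6.79. The other 3 had folds from 5.03 to 6.70. The region in the window of ZNF575 was in its flank, 110 bp from an end of ETHE1, a mitochondrial sulfur dioxygenase gene. The ZNF709 summit was 207 bp from its start, the promoter of which is printed above. Of this set, ZNF429 lies in the run of genes with the fewest peaks, described below.

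Few regions separated the mutant groups, and about as many did so in each direction. A peak in both STUB1 knockdown lists and neither V2084D list was found at 7 of the 153 WT regions (4.58%, against 2.49% of all WT regions), and the reverse at 6 (3.92%, against 2.64%). By gene, 6 of 156 members showed the first pattern (3.85%, background 2.13%) and 6 the second (3.85%, background 3%). The strongest of the first kind was ZNF780A (chr19:40090446-40091331), with folds of 7.89 and 7.09 in WT, no V2084D peak, and 5.43 and 4.66 with STUB1 knockdown. The others named by rank were ZNF8, whose region was 9 bp from an end of ERVK3-1, ZNF581, ZNF566, ZNF181 and ZNF223. The strongest of the reverse kind was ZNF571, with 7.67 and 7.52 in WT, 4.14 and 5.41 in V2084D and no STUB1 knockdown peak, followed by ZNF573, a flank region 8529 bp from ZNF581, ZNF584 and ZNF607. ZNF581 was in both sets through different regions. The counts rose to 23 of the first kind without V2084D replicate 2 and to 28 of the reverse without V2084D replicate 1.

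Occupancy differed widely between runs of neighbouring members. Members at most 500 kb apart were joined into runs, which gave 20, of which 8 held 14 or more genes. The run numbered 6 along the chromosome (chr19:19668153-24129968, ZNF101 to ZNF254) had a WT region at 9 of 37 genes (24.3%), and 26 of its genes had no peak in any list. The next lowest of the large runs was number 18 (chr19:51571283-53580269, ZNF175 to ZNF331), with 18 of 41 (43.9%). At the other end, number 10 (chr19:36182060-37779586, ZNF565 to ZNF573) had a WT region at 24 of 26 genes (92.3%), number 19 (ZNF628 to ZNF835) at 14 of 17 and number 20 (ZNF264 to ZNF446) at 31 of 43. Without run 6 the members with a WT region were 147 of 213 (69.0%), with 35 in V2084D and 48 with STUB1 knockdown. The backgrounds over all protein-coding genes were 63.6% in WT, 20.5% in V2084D and 22.2% with STUB1 knockdown.

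**Figure D2:**
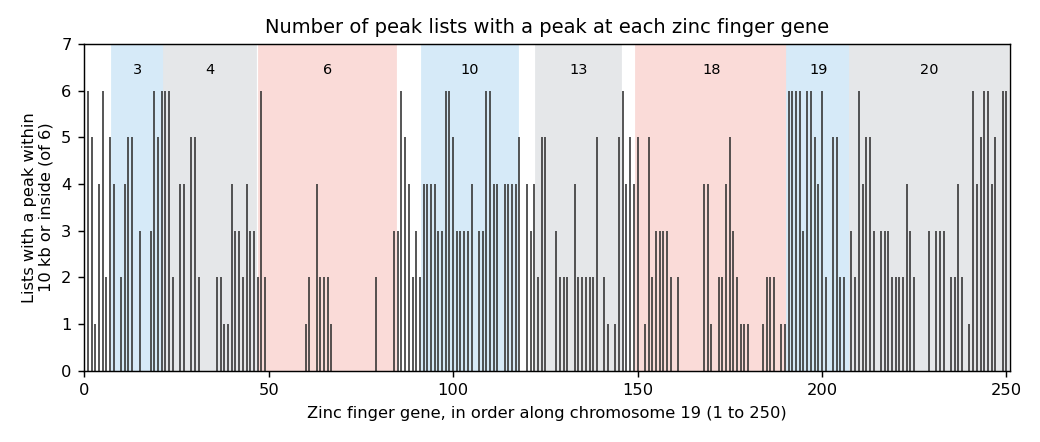
Number of the 6 peak lists with a peak inside or within 10 kb of each zinc finger gene (y axis) for the 250 genes in order along chromosome 19 (x axis, rank); shaded blocks are the runs of 14 or more genes with their numbers. The block numbered 6 holds 26 of the 67 genes with no peak in any list.

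In the mutant groups the order of the large runs was partly different. The background over all genes was 20.5% for V2084D and 22.2% for STUB1 knockdown. V2084D had a region at 1 of 37 genes in run 6 and 1 of 41 in run 18, and STUB1 knockdown also at 1 in each. In run 10 they had 9 and 7 of 26, in run 19 7 and 10 of 17, in run 20 9 and 9 of 43, in run 3 (ZNF414 to ZNF846) 2 and 5 of 14, and in run 4 (ZNF653 to ZNF791) 1 and 4 of 25. Run 13 (ZNF575 to ZNF180), the lowest for V2084D, had a WT region at 15 of 23 genes, none in V2084D and 5 with STUB1 knockdown. Its peak counts in the separate lists were 21 and 16 (WT), 0 and 5 (V2084D), and 5 and 7 (STUB1 knockdown). The absence of a V2084D region there rests on replicate 1, which had no peak in the run. Run 19 held 7 of the 26 members with a peak in all 6 lists.

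**Figure D3:**
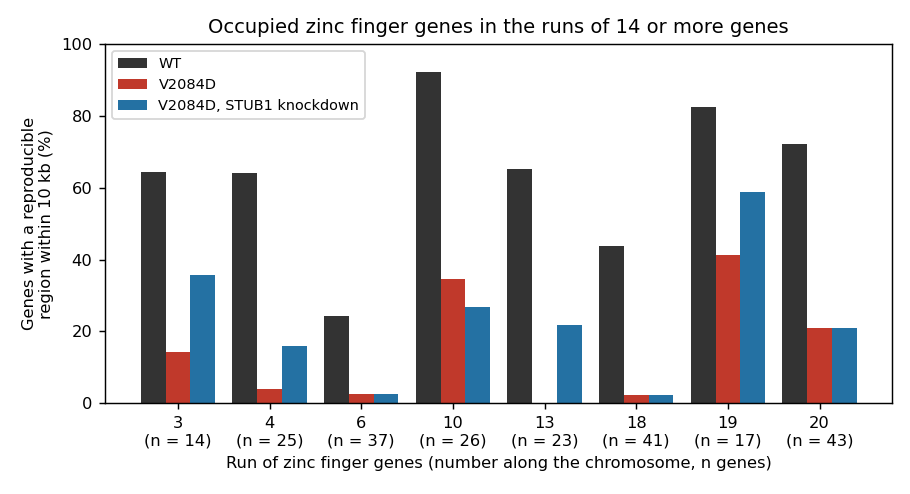
Percent of genes with a reproducible region inside or within 10 kb (y axis, bars from 0) in the 8 runs of 14 or more zinc finger genes (x axis, run number and gene count), for WT, V2084D and V2084D with STUB1 knockdown. Run 6 has the lowest WT bar, at 24.3%, and run 10 the highest, at 92.3%.

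The longest members with no peak in any list were ZNF91, ZNF577, ZNF676, ZNF730 and ZNF208, and all but ZNF577 lie in run 6. ZNF91, with 90468 bp, encodes a KRAB protein known for silencing SVA retrotransposons. ZNF577 (83510 bp) lies in run 18. Longer members had WT regions less often, at 46 of the 63 shortest members (2469 to 15423 bp) and 32 of the 63 longest (from 33692 bp). Many of the longest lie in run 6, which had a median length of 34630 bp and a WT region at 9 of 37 genes. The part of run 6 in this trend with length was not tested. Spearman's rho between gene length and the number of WT regions was −0.18 over the 250 members, given as a description, since windows of neighbours overlap. At the other extreme, ZNF581 had 7 WT regions in its window and ZNF580 had 5. These genes are neighbours in run 19, so several of the regions are the same.

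Starts with few CpG dinucleotides, the methylatable bases that cluster in the promoters of widely used genes, had fewer WT peaks. RefSeq listed 271 starts for 219 members, and windows of 300 bp from 250 bases before to 50 after each were compared. A peak of both WT lists within 1 kb was found at 3 of 24 starts with 0 to 9 CpG (12.5%), 41 of 100 with 10 to 19 (41.0%), 73 of 109 with 20 to 29 (67.0%) and 24 of 38 with 30 or more (63.2%). At the starts of all other protein-coding genes the shares were 6.42%, 47.1%, 71.1% and 78.3%. The members' share thus also rose with CpG number over the first 3 classes, but it did not rise further in the highest, as it did at the other genes. It was below that of the other genes in every class but the lowest. The median number was 22 at starts with both WT peaks, 16 at those with none and 27 at the 17 starts with a peak in all 6 lists. In single lists, 131 and 129 of 219 had a WT peak at a listed start (59.8% and 58.9%), against 60.3% and 58.8% of all 15843 protein-coding genes with a start.

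Run 6 stood low in CpG number too. Its 30 starts had a median of 10 CpG (range 8 to 18), against 21 at the other 241 member starts, and 7 of them (23.3%) had both WT peaks, against 134 (55.6%). Within the class of 10 to 19 CpG, 5 of 21 starts of run 6 (23.8%) had both WT peaks and 36 of 79 of the other members (45.6%). Within 0 to 9 CpG the order was the reverse, with 2 of 9 starts of run 6 (22.2%) and 1 of 15 of the other members (6.67%). Run 18 had as many CpG as the rest, with a median of 24, and 13 of 47 starts (27.7%) had both WT peaks. The part of CpG number in the low counts of run 6 was not tested.

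The starts of run 6 were also more alike than those of the other members taken as 1 set. The best match of each 300 bp window to that of another member had a median identity of 82.0% in run 6 (range 54.7% to 91.0%, 20 of 30 above 80%) and of 54.0% elsewhere (18 of 241 above 80%), by edit distance over the window. The windows of ZNF91 and ZNF208, part of which is printed above, differed by 43 edits, an identity of 85.7%. Within run 6 the median was 75% at the 7 starts with both WT peaks and 83.7% at the 21 with none. How reads that fit several places were treated is not given in the sources used here, and their part in the counts of run 6 was not tested. The span of run 6 holds 2 other protein-coding genes, and neither had a WT region.

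Of the motifs, CCGGAAG was common at these genes. On either strand of the 300 bp window it was found at 111 of 271 starts (41.0%), against 12.8% of all 22199 protein-coding starts and 28.4% at zinc finger genes elsewhere. Among the members it was found at 48 of 100 starts with no WT peak (48.0%) and at 51 of 141 with both (36.2%), while over all protein-coding starts the shares were 4.84% and 19.2%. It was found at 22 of 30 starts of run 6 (73.3%) and at 89 of the other 241 member starts (36.9%). Of the 30 starts of run 6, 21 had no WT peak and 7 had both. These starts thus weigh more among the members with no WT peak, and their part in the members' contrast was not tested. GGGCGG was found at 64.9% of the members' starts (all 56.3%), CCATNTT at 17.3% (14.6%), GCATGCGC at 4.43% (3.74%) and TGACTCA at 2.58% (4.01%). In the printed stretches, ZNF274 holds 5 matches to GGGCGG and 1 to CCGGAAG, ZNF91 and ZNF208 1 of each, ZNF837 and ZNF709 1 to GGGCGG, and ZNF780A none. ZNF837 has 33 CpG in its 300 bp window, ZNF709 27, ZNF780A 17, ZNF274 16, ZNF91 11 and ZNF208 10. A match is only a match of letters.

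Most genes of the repression pathway that KRAB proteins use had a WT region. Of 18 such genes, 16 had a WT region, 15 of them at a gene end, 6 a V2084D region and 4 a region with STUB1 knockdown. The backgrounds over all genes were 63.6%, 50.2%, 20.5% and 22.2% in that order, and 4 of 18 is no more than the last of these. TRIM28, which itself lies on chromosome 19, had peaks in all 6 lists, with best folds of 8.05 and 9.47 in WT, 4.10 and 3.52 for V2084D, and 4.72 and 4.34 for the STUB1 knockdown. SETDB1 had a WT region, with best folds of 7.04 and 6.89, 1 V2084D list with a peak and 1 STUB1 knockdown list with a peak. CHD3, CBX3 and HDAC1 had a region in all 3 groups. ATRX and DAXX, which together place histone H3.3 in heterochromatin, had no peak in any list. Of 11 hepatocyte genes looked at to place the cell line, 4 had a WT region (APOA1, FOXA1, FOXA3 and CEBPA; background 63.6%), and ALB and AFP had no peak. Peaks do not measure expression.

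Few peaks lay near the edge of the windows. Between 9 and 10 kb from a member the lists held 4, 3, 1, 2, 2 and 0 peaks, and between 10 and 11 kb 1, 4, 1, 1, 1 and 0. Chromosome 19 as a whole held 2068 and 2019 peaks in the WT lists, 420 and 880 for V2084D, and 741 and 516 for the STUB1 knockdown. Read depth is unknown from the files, and list length can also follow depth and ChIP yield, whose part was not tested.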

How the data were processed

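Flag ChIP-seq peak lists of 6 libraries (3 groups of 2) were used. Per the submitters' processing notes, reads were handled with tools that include Bowtie2 and MACS2 (also Trimmomatic, Picard, SAMtools, deepTools and bedtools) on build hg38. Tool versions, thresholds and control libraries of the peak calls were not given in the sources used here. Peaks were called per library, per the peak names in the deposited lists. The authors' lists give each peak a score, a fold enrichment over background (a ratio), −log10 p and −log10 q, and a summit position. These values were used only within a list. Read depth is unknown.

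The members and lists were chosen with earlier results of these data known. Gene ends came from RefSeq on GRCh38.p14 and strands from its promoter windows, matched for 219 members. Peaks were placed by summit, gene end first, then body, then flank. Named members were, within each class, those with the best worse rank by −log10 q of the 2 lists of a group, at gene ends (8), in bodies (8), in all 6 lists (6), without mutant peaks (6) and separating the mutant groups (up to 6 each way). They also include the members with the most body regions (5), the longest without peaks (5) and ZNF274. The 18 genes of the repression pathway and the 11 hepatocyte genes were fixed lists, not picked by their values. Which of their genes to name, and all else named, was chosen after the values were seen. Alternatives were the window, the gene end distance, the overlap rule, −log10 q or fold of at least 5, lists of equal length and leaving out each library. Other comparison sets, peaks left out near other genes and the run at 19 to 25 Mb left out were chosen after seeing the data. Python 3.11.15, pandas 2.3.3, SciPy 1.17.1, networkx 3.6.1 and edlib 1.3.9.post1 were used. Placing and overlap were tested on simulated peaks. Protein features were not used here.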

Additional observations from a re-analysis of the deposited data

Results flagged for a closer look

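The lists also held peaks on alternate contigs of chromosome 19, sequences that stand for other versions of parts of the chromosome and are outside all counts above. There were 14 in WT replicate 1, 11 in WT replicate 2 and 5 in STUB1 knockdown replicate 1, each above 3, the number a count of 0 allows. The other lists held 0, 3 and 1.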

How the results depend on the processing

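The higher end share and the lower body density kept their direction and p = 0.03125 (exact permutation) in all 11 alternatives that used 6 lists. Most of these were against the other chromosome 19 genes. The rest were against zinc finger genes elsewhere and against all genes that are no members. Both of these, and the setting without peaks in the windows of both sets, were chosen after seeing the data. With a library left out the differences from the other chromosome 19 genes ranged from 16.3 to 17.4 percentage points and from −2.64 to −2.50 (log2), with exact permutation p = 0.0625, the smallest that 5 lists allow. Comparisons between groups were less stable. With gene ends of 2000 bp the end share of STUB1 knockdown minus V2084D was −0.19 points. With −log10 q of at least 5 it was −0.37, the list share of V2084D minus WT was −0.35 (log2), the covered share of STUB1 knockdown minus V2084D was 7.53 points, members with a region were 76, 6 and 13 (WT, V2084D, STUB1 knockdown), and 0 regions were held in V2084D alone among the mutants. With a fold of at least 5 the list share of V2084D minus WT was −0.011, the covered share 9.86 points, the members 82, 9 and 16, and the regions without mutant peaks 26, with STUB1 knockdown peaks alone 4 and with V2084D peaks alone 0. In lists of equal length the list shares against WT were −0.30 and −0.25, the end share of V2084D minus WT −1.27, the covered share 1.09, the WT members 52 and these regions 3, 2 and 2. With an overlap of 50% the covered share was 5.26 and the V2084D-alone regions 2. With summits within 200 bp STUB1 knockdown had 31 members and 4 regions of its own. Fewer peaks enter most of these settings, and the cause was not tested otherwise. The share over all genes was not counted at these filters, so the counts of members have no background here. The number of WT regions also changed with the filters and overlap rules, so the region counts do not share the base of the main setting.

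Leaving out 1 library moved the members with a region to 156 to 171 in WT, 36 to 101 in V2084D and 49 to 74 with STUB1 knockdown, since the remaining list's peaks then count alone. The regions without mutant peaks ranged from 47 to 96, those of STUB1 knockdown alone from 7 to 23 and those of V2084D alone from 6 to 28. With a WT list left out, the number of WT regions changed too. The list share of V2084D minus WT ranged from −0.056 to 0.12, the covered share from −16.3 to 11.1 points and end minus body coverage from −0.66 to 20.4 points.

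With the replicate number as a block, the end share differences stayed 9.59, 4.12 and 13.7 points with p = 0.5 (exact permutation), the smallest 2 pairs allow. The list share differences were 0.031 (p = 1), 0.17 and 0.21 (p = 0.5), and the covered share −2.61 (p = 1), all by the exact permutation test. No call changed. The deviations of same-numbered libraries correlated over members at 0.082, 0.11 and −0.074. With 2 libraries a group and no peak at many members, these values cannot show whether same-numbered libraries shared a batch.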
